A study of Mus musculus with 6 samples.

Results

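The mitosis and kinetochore genes are 40 protein-coding mouse genes whose products carry a cell through mitosis, from the cyclins that start it to the proteins that cut the daughter cells apart. The list is a fixed set of names that uses no threshold on the values, drawn up with earlier results of these data known, and all 40 genes were found among the 49315 genes counted in each of 6 libraries. Most of these genes are transcribed late in the cell cycle. In resting cells the DREAM complex, built on the MuvB core, holds their promoters silent, and B-Myb and FoxM1 switch them on as cells pass from S phase into G2 and M. Hematopoietic stem cells at the top of the blood hierarchy divide rarely, whereas the progenitors below them divide more often, so the abundance of these transcripts in marrow fractions is commonly read as a sign of cycling.

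The study sequenced bulk RNA from long-term hematopoietic stem cells (LT-HSC, LSK CD48-CD34-CD150+), short-term hematopoietic stem cells (ST-HSC, LSK CD48-CD34+CD150+) and multipotent progenitors (MPP, LSK CD48-CD34+CD150-) of WT and ING4-/- mice, with 1 library for each genotype and population. LSK cells are lineage-negative marrow cells that carry Sca1 and cKit, and ING4 is a chromatin-binding protein of acetyltransferase complexes. The control mice were WT C57BL/6 animals of 8 to 12 weeks, and the age of the ING4-/- mice at collection is not given in the sources used here. For each genotype the marrow of 8 to 10 mice was pooled and lineage depleted before sorting, so a library is an average of animals and the populations stand in for replicates. The p-values below therefore measure the spread between the populations of a genotype, not between mice.

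The genotypes were not equal in depth or in background. The WT libraries held 7839326 to 9363442 counts and the ING4-/- libraries 35596876 to 39192588. Counts on 1915 olfactory and vomeronasal receptor genes, which blood cells do not use, came to 18.3 to 22.9 counts per kb of exon in the WT libraries and at most 0.0800 in ING4-/-. Spread over all exons, this background amounted to 22.8% to 33.7% of the WT counts. It made up 38.0% of the summed counts of the 40 genes in the WT LT-HSC library, 16.6% in that of ST-HSCs and 18.2% in that of MPPs. Each gene is therefore also given after subtraction of the background expected from its exonic length. Triplets of values are given in the order LT-HSC, ST-HSC, MPP throughout. Ing4 itself was counted at 247, 162 and 247 reads in WT and at 0, 24 and 76 in the deeper ING4-/- libraries. In bulk RNA, fewer cells in mitosis and less RNA of these genes per cell cannot be told apart.

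The promoters of the 40 genes share letters that the choice of genes did not use. The cell cycle genes homology region (CHR), at which MuvB complexes bind, reads TTTGAA in its usual form, with TTTAAA and TTCGAA as variants, and it often lies a few turns of the helix from CCAAT boxes, the sites of NF-Y. RefSeq promoters of GRCm38.p6, each 250 bases before to 50 after a start, were at hand for 34 of the genes, with 38 promoters. On either strand TTTGAA stood in 28 of these 38 (73.7%) against 17.9% of 32851 mouse promoters. Any of the 3 forms was found in 84.2% against 28.8%, and CCAAT in 71.1% against 37.4%. Promoters that held both a CHR form and CCAAT made up 71.1% of these promoters, 34.6% of 107 promoters of other mitosis genes (94 of 114 genes matched), 21.6% of 37 promoters of DNA replication genes (32 of 40 matched) and 11.3% of all. A match of such short letters is a description and not a binding site, and the motifs may share bases where they adjoin.

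Promoter stretches of 110 bases are shown for Mki67 and Cdk1, the gene that fell and a gene that rose in the comparison of genotypes. They are also shown for Plk1 and Cdc20, which carry CHR forms too but were not called. They are read 5′ to 3′ on the strand of the gene and end at the base before the start in RefSeq or GENCODE, whichever lies further upstream. The stretches lie at chr7:135716380-135716489 (minus strand) for Mki67, chr10:69352939-69353048 (minus strand) for Cdk1, chr7:122159325-122159434 (plus strand) for Plk1 and chr4:118437353-118437462 (minus strand) for Cdc20. Capitals mark CHR forms and CCAAT boxes, both also in their reverse complement.
Mki67: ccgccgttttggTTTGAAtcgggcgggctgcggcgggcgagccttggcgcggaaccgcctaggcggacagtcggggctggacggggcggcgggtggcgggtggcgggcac
Cdk1: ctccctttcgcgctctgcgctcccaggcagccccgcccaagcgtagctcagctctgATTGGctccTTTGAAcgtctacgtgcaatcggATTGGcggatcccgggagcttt
Plk1: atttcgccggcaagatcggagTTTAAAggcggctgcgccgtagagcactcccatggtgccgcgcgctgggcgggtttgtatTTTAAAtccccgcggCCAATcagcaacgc
Cdc20: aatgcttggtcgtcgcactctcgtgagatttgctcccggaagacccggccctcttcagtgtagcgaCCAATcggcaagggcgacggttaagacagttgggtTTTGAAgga
The CHR form begins 98 bases before the start in Mki67, 45 bases before it in Cdk1, and 9 bases before it in Cdc20. Plk1 holds 2 such forms, at 89 and 29 bases. CCAAT boxes begin 54 and 22 bases before the start in Cdk1, 14 in Plk1 and 44 in Cdc20. This stretch of Mki67 holds none, although CCAAT was found in the longer Mki67 promoter searched above.

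All 40 genes were measured in every WT library, but the background limits what a low WT level means. In the WT libraries of ST-HSCs and of MPPs, 35 of the 40 genes had more counts over their expected background than 95% of the receptor genes did, against 14 of 40 in WT LT-HSCs. These 14 were Top2a, Ccnb2, Cdk1, Bub1b, Bub3, Mad1l1, Incenp, Ndc80, Spc24, Tpx2, Nusap1, Cdc20, Espl1 and Pttg1. The range is that of 1297 receptor genes of at least 1000 bases. It was not matched to the length of the members (median 4314.5 bases), and how the range depends on length was not tested. In TPM, the counts divided by exonic length and scaled to the same sum in every library, and after subtraction, the median gene stood at 10.7, 38.3 and 23.6 TPM in the WT populations and at 7.01, 40.3 and 22.9 TPM in those of ING4-/- mice. The highest levels were those of Ccnb2, which reached 174 TPM in WT ST-HSCs, and of Cdc20, which reached 240.2 TPM in ING4-/- ST-HSCs. The order of the 40 genes by level was alike between genotypes in ST-HSCs (Spearman rho 0.829) and MPPs (0.726) and less so in LT-HSCs (0.531), as a description over 40 genes that share libraries and lengths.

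**Figure D1:**
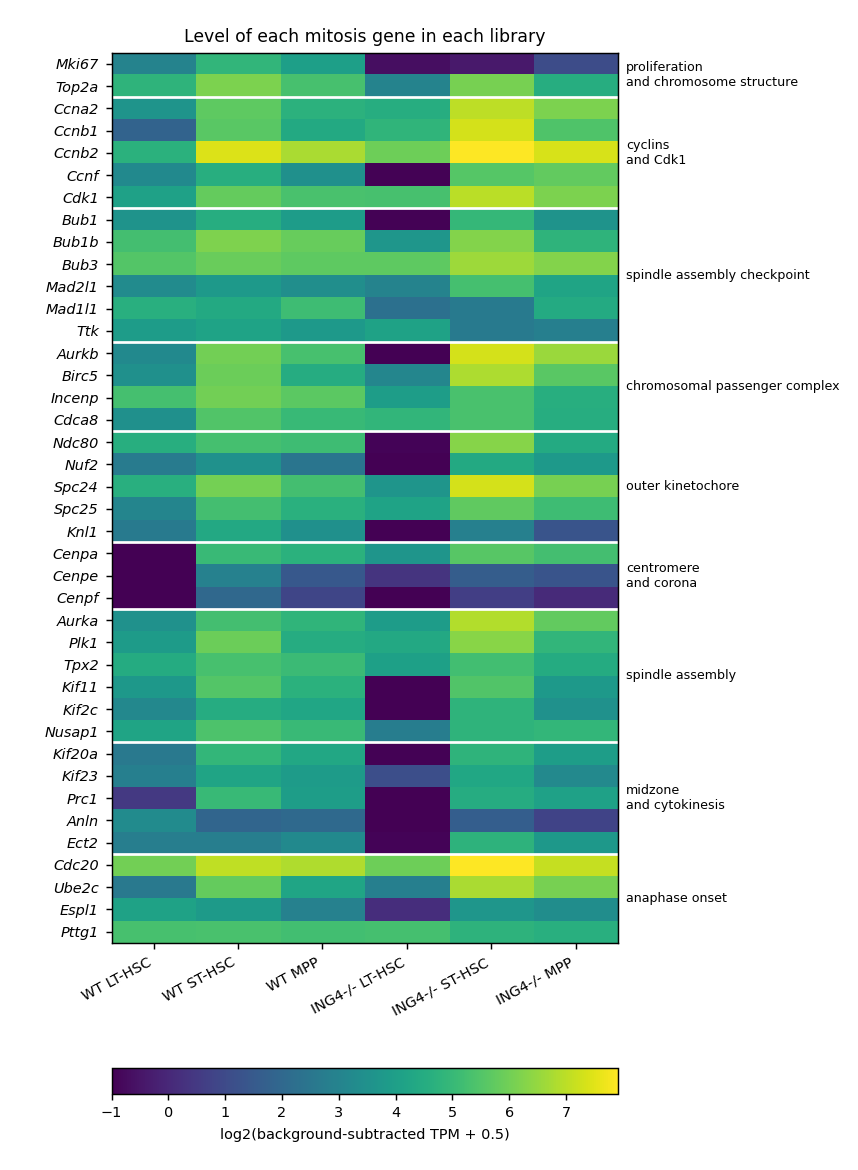
Level of the 40 genes (rows, grouped by role) in the 6 libraries (columns), as log2 of background-subtracted TPM plus 0.5, with 1 library per column. The ST-HSC columns are the brightest in both genotypes, Mki67 is dark in the 3 ING4-/- libraries, and 13 genes are at the bottom of the scale in ING4-/- LT-HSCs.

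The first comparison asked which of these genes differed between ING4-/- and WT cells over the 3 populations. The call required 2 things of edgeR's quasi-likelihood test, an adjusted p below 0.05 and a change of more than 1 on the log2 scale in either direction. Of the 40 genes, 2 rose, Cdk1 and Bub3, and 1 fell, Mki67, while 37 were not called. Among all 31001 genes tested, 7.98% were called higher and 56.7% lower, so the single member called lower is a smaller share than that of all genes. The median log2 fold change of the 40 genes was 0.32, with 25 above 0 and 15 below, against a median of -6.85 over all genes. The sign of the median depended on the scaling, since it was -0.05 with the size factors of DESeq2 (20 genes above 0) and 0.92 with upper-quartile scaling (34 genes above 0). These scalings moved the median of all genes to -7.17 and -6.35.

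With the background subtracted, Mki67 alone was called (1 lower, 0 higher). In that fit 5.64% of 19672 genes were called higher and 38.6% lower, 1 member had an unadjusted p under 0.05, and the members' median was -0.23 against -0.92 over all genes. DESeq2 on the deposited counts called 0 members higher, Mki67 and Cenpe lower, and 3 had an unadjusted p under 0.05. When population was entered as a block, 7 genes were called higher (Ccna2, Ccnb1, Ccnb2, Cdk1, Bub3, Cenpa and Aurka) and Mki67 lower, against 6.45% of all genes higher and 54.4% lower. With both the block and the subtraction, 0 were called in edgeR, 10 had an unadjusted p under 0.05, and the lowest adjusted p was 0.0573. The ING4-/- LT-HSC library weighed most. Without it 15 genes were called higher and 3 lower (Mki67, Cenpf and Anln), against 8.62% and 61.7% of all genes. Without both LT-HSC libraries 14 were called higher and 2 lower.

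**Figure D2:**
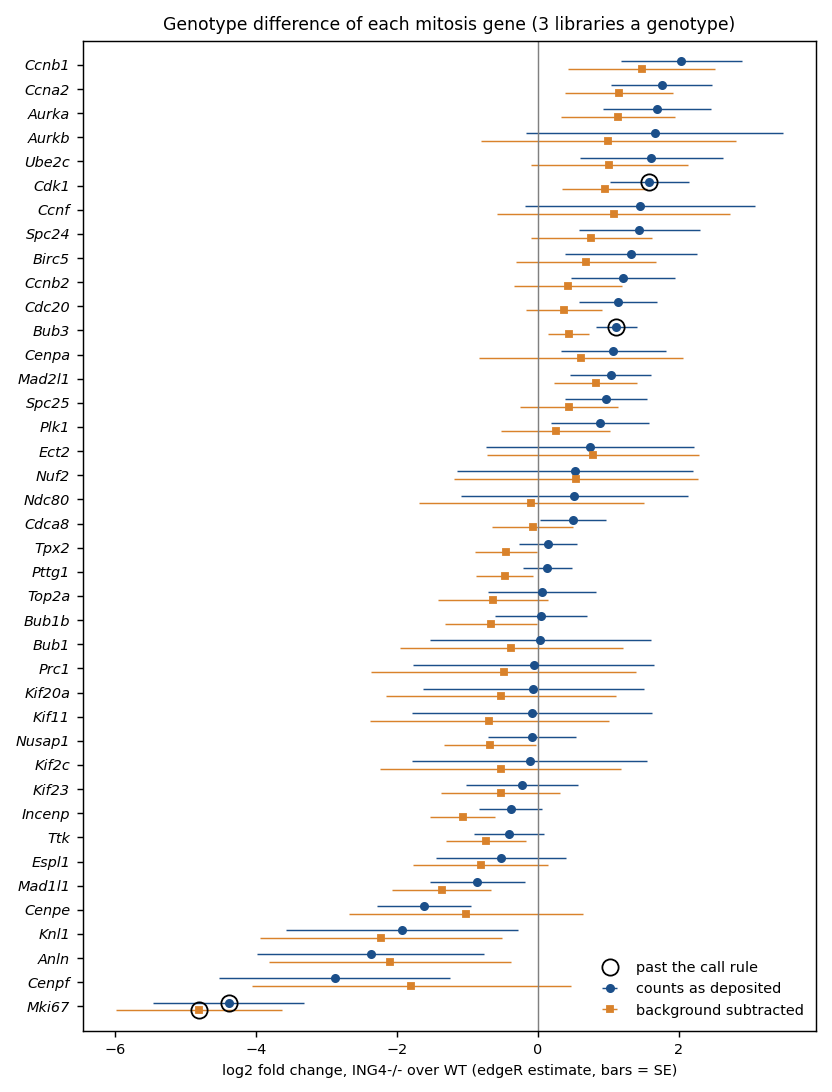
Log2 fold change of each of the 40 genes, ING4-/- over WT, from edgeR with 3 libraries a genotype (bars are SE), for the counts as deposited (circles) and after background subtraction (squares). Rings mark Cdk1, Bub3 and Mki67 on the deposited counts and Mki67 after subtraction, and 35 of the 40 squares lie to the left of their circles.

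Mki67 and Top2a are the usual markers of proliferating cells. Mki67 encodes Ki-67, which coats mitotic chromosomes, and Top2a encodes the topoisomerase that untangles them. Mki67 was at 57.8, 152 and 83.3 CPM (counts scaled to the same total in every library, not divided by length) in the WT populations and at 0.646, 1.32 and 8.60 CPM in the ING4-/- populations. Every ING4-/- library lay below every WT library. The mean on the TMM scale, edgeR's correction for library composition, was 85.4 ± 42.8 CPM in WT and 4.08 ± 5.08 CPM in ING4-/- (SD, n = 3), a log2 fold change of -4.38 (SE 1.07, edgeR adjusted p = 0.00807). It was -4.81 after background subtraction (edgeR adjusted p = 0.0112). With at least 10 counts required in every library and a trend on gene length removed, it was -3.94. Mki67 was not called without both ST-HSC libraries, nor with subtraction and the population block together. In WT LT-HSCs the Mki67 counts were 1.99 times the expected background, a ratio within the range of the receptor genes.

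Top2a did not follow Mki67. It was at 121, 301 and 161 CPM in the WT populations and at 33.0, 306 and 109 CPM in ING4-/-, so the groups overlapped. Its log2 fold change was 0.06 (SE 0.76, edgeR adjusted p = 0.957) and turned negative in 11 of 18 alternative settings. Per length and after subtraction, Top2a and Mki67 stood at 70.4 and 28.3 TPM in WT ST-HSCs but at 67.5 and 0.256 TPM in ING4-/- ST-HSCs. In MPPs the pair stood at 39.4 and 15.6 TPM in WT and at 22.7 and 1.61 TPM in ING4-/-.

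The cyclins and Cdk1 form the kinase that starts mitosis. Cdk1 is the catalytic subunit, Ccnb1 and Ccnb2 encode the B cyclins that activate it, Ccna2 acts in S and G2 phase, and Ccnf directs proteins to degradation. Of these 5 genes 1 was called, Cdk1, which was at 31.8, 93.0 and 62.9 CPM in WT and at 68.3, 222 and 130.5 CPM in ING4-/-. It was higher in ING4-/- in each of the 3 populations, although the lowest ING4-/- library lay below the highest WT library. Its log2 fold change was 1.58 (SE 0.560, edgeR adjusted p = 0.0395). The call did not survive subtraction, where the value was 0.95 (edgeR adjusted p = 0.258).

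Ccnb1 had the highest fold change of the list without being called. It stood at 17.1, 101 and 43.9 CPM in WT and at 58.4, 339 and 97.3 CPM in ING4-/-, a log2 fold change of 2.04 (SE 0.865, edgeR adjusted p = 0.0742). With population as a block it was 1.97 (SE 0.257, edgeR adjusted p = 0.0246). Ccnb1 was not called after background subtraction, nor with subtraction and the block together. The WT LT-HSC counts of Ccnb1 were 1.41 times the expected background, within the range of the receptor genes. Reads of Ccnb1 can be shared with near-identical copies, among them Ccnb1-ps, which matches it at 99.2% over 1287 bases and was itself counted at 6 to 49 reads a library. Another copy, Gm12856, matches Ccnb1 at 98.1% over 1294 bases and was counted at 161, 135 and 105 reads in WT but at 5, 11 and 2 in ING4-/-, while Ccnb1 itself had 134 reads in WT LT-HSCs. The part of these copies in the fold change was not tested. Ccnb2 was at 19.3, 119.8 and 70.1 CPM in WT and at 46.9, 181 and 134 CPM in ING4-/- (log2 1.21, SE 0.739, edgeR adjusted p = 0.194). Ccna2 and Ccnf had log2 values of 1.76 and 1.45 that were not called, and Ccnf had 1 count in the ING4-/- LT-HSC library.

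The spindle assembly checkpoint holds cells in metaphase until every kinetochore is attached. Ttk and Bub1 recruit its members to kinetochores, Mad1l1 and Mad2l1 make the inhibitor with Bub1b and Bub3, and the inhibitor blocks Cdc20. Of these 6 genes 1 was called, Bub3, which was at 142, 195 and 158.5 CPM in WT and at 179, 340.1 and 281 CPM in ING4-/-. On the TMM scale the means were 144 ± 26.0 and 312 ± 102 CPM (SD, n = 3) and the groups did not overlap, whereas in plain CPM the lowest ING4-/- library lay below the highest WT library. Its log2 fold change was 1.11 (SE 0.293, edgeR adjusted p = 0.0114) and 0.44 after subtraction (edgeR adjusted p = 0.274).

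Mad1l1 had the lowest value of the checkpoint genes, at 43.9, 43.25 and 58.5 CPM in WT and at 7.95, 10.9 and 41.7 CPM in ING4-/- (log2 -0.86, SE 0.675, edgeR adjusted p = 0.305). The ING4-/- LT-HSC and ST-HSC libraries were low and the MPP library lay near WT. Bub1b, at 74.2, 147 and 106 CPM in WT and at 26.5, 162.5 and 61.1 CPM in ING4-/-, overlapped between genotypes (log2 0.04, edgeR adjusted p = 0.960). Mad2l1, Ttk and Bub1 were not called, with log2 values of 1.04, -0.41 and 0.04. Bub1 had 1 count in ING4-/- LT-HSCs, where the other 5 checkpoint genes had 283 to 6372.

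The chromosomal passenger complex corrects faulty attachments. Aurkb is its kinase, and Incenp, Birc5 (survivin) and Cdca8 (borealin) tether it to centromeres. None of the 4 genes was called on genotype. Aurkb was at 18.5, 91.1 and 53.0 CPM in WT and at 0, 236 and 147 CPM in ING4-/- (log2 1.66, SE 1.82, edgeR adjusted p = 0.462). It was thus above WT in 2 of the populations and without a read in the third.

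Birc5 was at 23.5, 98.2 and 37.6 CPM in WT and at 13.6, 190.4 and 89.5 CPM in ING4-/- (log2 1.32, SE 0.935, edgeR adjusted p = 0.258). Incenp, at 57.0, 99.0 and 71.7 CPM in WT and at 24.3, 65.3 and 40.3 CPM in ING4-/-, was lower in ING4-/- in every population (log2 -0.38, SE 0.446, edgeR adjusted p = 0.487). The ING4-/- LT-HSC library that held 0 counts of Aurkb held 484 of Birc5, 864 of Incenp and 2632 of Cdca8. A count of 0 there allows up to 3 counts or 0.0843 CPM, for counting error only. The WT LT-HSC counts of Aurkb were 2.18 times the expected background, within the range of the receptor genes, so no fold is given.

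The outer kinetochore grips microtubules. Ndc80, Nuf2, Spc24 and Spc25 form the rod-shaped NDC80 complex, and Knl1 is the scaffold of the checkpoint proteins. None of the 5 was called. Spc24 was at 31.25, 81.4 and 44.1 CPM in WT and at 15.5, 207 and 92.0 CPM in ING4-/- (log2 1.44, SE 0.858, edgeR adjusted p = 0.183). Knl1 was at 43.6, 99.8 and 53.3 CPM in WT and at 0, 29.1 and 8.905 CPM in ING4-/- (log2 -1.92, SE 1.65, edgeR adjusted p = 0.347), with every ING4-/- library below every WT library, though its WT LT-HSC counts lay within the range of the receptor genes. The 4 subunits of the NDC80 complex parted in ING4-/- LT-HSCs, where Ndc80 had 1 count and Nuf2 0 while Spc24 had 552 and Spc25 983. In ING4-/- ST-HSCs the same 4 had 2499 to 7829 counts.

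Cenpa encodes the histone variant that marks centromeres, and Cenpe and Cenpf encode a motor and a coiled-coil protein of the kinetochore corona. In edgeR none of the 3 was called on the deposited counts as scaled by TMM, while DESeq2 and edgeR with a minimum of 10 counts called Cenpe lower and the population block called Cenpa higher. Cenpa was at 16.7, 98.55 and 71.2 CPM in WT and at 35.5, 142 and 118 CPM in ING4-/- (log2 1.07, SE 0.745, edgeR adjusted p = 0.249). Cenpf was at 20.5, 67.35 and 38.45 CPM in WT and at 0, 8.28 and 4.41 CPM in ING4-/- (log2 -2.88, SE 1.64, edgeR adjusted p = 0.166). For Cenpf and Cenpe the groups did not overlap, but their WT counts lay within the range of the receptor genes in all 3 populations. In WT LT-HSCs the 3 genes had no more counts than the background expected from their length.

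Aurka, Plk1 and Tpx2 build the spindle from its poles, Kif11 and Kif2c are motors that slide and shorten microtubules, and Nusap1 bundles them. None of the 6 was called. Aurka was at 17.7, 48.8 and 33.2 CPM in WT and at 18.5, 149 and 72.6 CPM in ING4-/- (log2 1.69, SE 0.767, edgeR adjusted p = 0.0911). Plk1 was at 18.5, 63.5 and 24.2 CPM in WT and at 22.4, 89.3 and 33.7 CPM in ING4-/- (log2 0.89, SE 0.697, edgeR adjusted p = 0.306). Both were higher in ING4-/- in each population in CPM and in subtracted TPM, whereas in TPM without subtraction Aurka was at 15.0 in WT and 14.7 in ING4-/- LT-HSCs. Kif2c, at 26.7, 55.05 and 41.9 CPM in WT and at 0, 59.2 and 25.1 CPM in ING4-/-, overlapped between genotypes (log2 -0.12, SE 1.67, edgeR adjusted p = 0.959).

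The central spindle and the cleavage furrow complete division. Kif20a, Kif23 and Prc1 organize the midzone, Ect2 activates RhoA, and Anln (anillin) scaffolds the contractile ring. None of the 5 was called. Ect2 was at 28.8, 30.45 and 30.0 CPM in WT and at 0.0843, 72.3 and 37.35 CPM in ING4-/- (log2 0.74, SE 1.48, edgeR adjusted p = 0.692). Anln was at 58.8, 38.8 and 31.0 CPM in WT and at 0, 12.2 and 5.87 CPM in ING4-/-, with no overlap (log2 -2.37, SE 1.61, edgeR adjusted p = 0.239), but its WT counts lay within the range of the receptor genes in all 3 populations. The summed level of the 5 genes per length was 29.1, 88.7 and 61.7 TPM in WT and 1.74, 97.9 and 54.5 TPM in ING4-/-, so the ING4-/- LT-HSC library was the one that stood apart. Kif20a shares 29.3% of its exonic bases with Cdc23 on the other strand, and reads there cannot be told apart without strand.

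Anaphase starts when Cdc20 and the E2 enzyme Ube2c let the anaphase-promoting complex destroy securin (Pttg1) and free separase (Espl1). None of the 4 genes was called. Cdc20 was at 51.5, 113.5 and 91.2 CPM in WT and at 56.3, 225.5 and 138 CPM in ING4-/- (log2 1.13, SE 0.552, edgeR adjusted p = 0.111). Ube2c was at 13.1, 69.8 and 24.5 CPM in WT and at 8.65, 142.5 and 92.0 CPM in ING4-/- (log2 1.61, SE 1.02, edgeR adjusted p = 0.207). Espl1 was at 62.0, 59.3 and 31.9 CPM in WT and at 2.11, 41.3 and 34.4 CPM in ING4-/- (log2 -0.53, SE 0.922, edgeR adjusted p = 0.650), and only its LT-HSC libraries stood far apart. Ube2c shares 22.8% of its exonic bases with Tnnc2 on the other strand.

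The wider mitotic machinery, a list of 114 genes for cohesin, condensin, the anaphase-promoting complex, the inner kinetochore, further motors, kinases and MuvB and E2F regulators, had 15 genes called higher and 5 lower, where 7.98% of all genes were called higher and 56.7% lower. Its median log2 fold change was 0.32. The highest called values were those of Haspin (2.15, SE 0.717, edgeR adjusted p = 0.0317), the kinase of histone H3 at centromeres, and Anapc11 (2.14, SE 0.221, edgeR adjusted p = 6.57e-04), the RING subunit of the anaphase-promoting complex. The lowest were those of the cohesin factors Pds5a (-3.21, SE 0.419, edgeR adjusted p = 6.57e-04) and Nipbl (-2.29, SE 0.323, edgeR adjusted p = 7.14e-04). After subtraction 2 of the 114 were called higher, Anapc11 and Sgo2a (the latter named after its values were seen), and 9 lower, against 5.64% and 38.6% of all genes. Haspin was then at 2.90 and not called (edgeR adjusted p = 0.151). Of 40 DNA replication genes, 6 were called higher and 2 lower on the deposited counts, and 0 higher and 4 lower (Orc1, Rfc1, Pola1 and Pole, named after their values were seen) after subtraction.

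Exonic length ran through the genotype values. Across the 40 genes the log2 fold change correlated with the log2 of exonic length at r = -0.637 (Spearman rho -0.592), and at -0.522 after background subtraction, as descriptions over genes that share libraries. The 8 genes over 8000 bases had a median of -1.77, and 6 of them were below 0. Mki67, Cenpf, Cenpe, Anln and Knl1 were the lowest of these, while Top2a (0.06) and Prc1 (-0.06) lay near 0 and Mad2l1 was at 1.04. The 9 genes under 3000 bases had a median of 1.21. Over the 9673 genes whose 6 libraries each held 10 counts or more, r was -0.414 (Spearman rho -0.511). Among the 27 of the 40 genes above that minimum, r was -0.52 (rho -0.489). In these 27 genes a fit with the length trend removed called Bub3 higher and Mki67 lower. The part of length in the other genes' values was not tested.

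**Figure D3:**
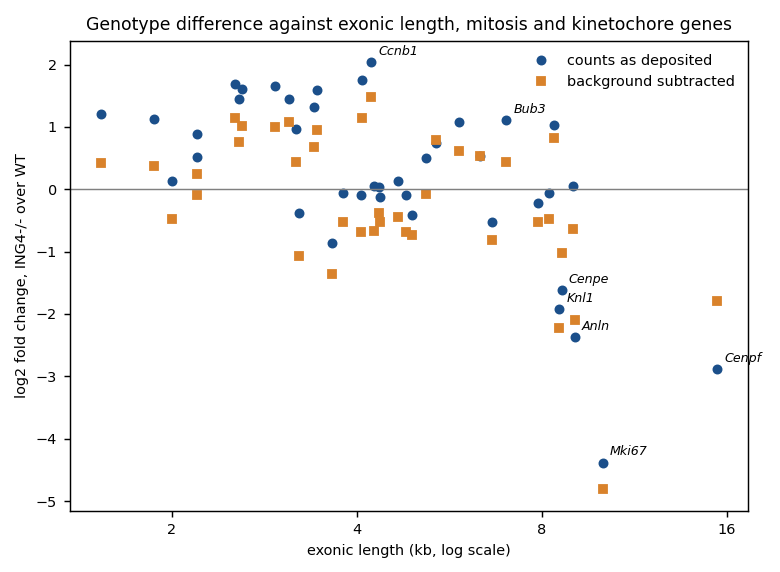
Log2 fold change of the 40 genes, ING4-/- over WT, against exonic length in kb (log scale), from the deposited counts (circles) and after background subtraction (squares). Points fall from left to right (r = -0.637 and -0.522), and Mki67 lies lowest at both.

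The next comparison followed the genes down the hierarchy. In WT and in ING4-/- cells alike, 33 of the 40 genes were highest in ST-HSCs, intermediate in MPPs and lowest in LT-HSCs after background subtraction, and 29 had this order in both genotypes. Over all genes with at least 100 subtracted counts in a library, 15.0% had this order in WT and 20.9% in ING4-/-. Of the replication genes it was held by 56.4% in WT and 70.0% in ING4-/-, and of the other mitosis genes by 42.5% and 51.8%. ST-HSCs held more than LT-HSCs in 37 genes in WT and in 38 in ING4-/-.

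**Figure D4:**
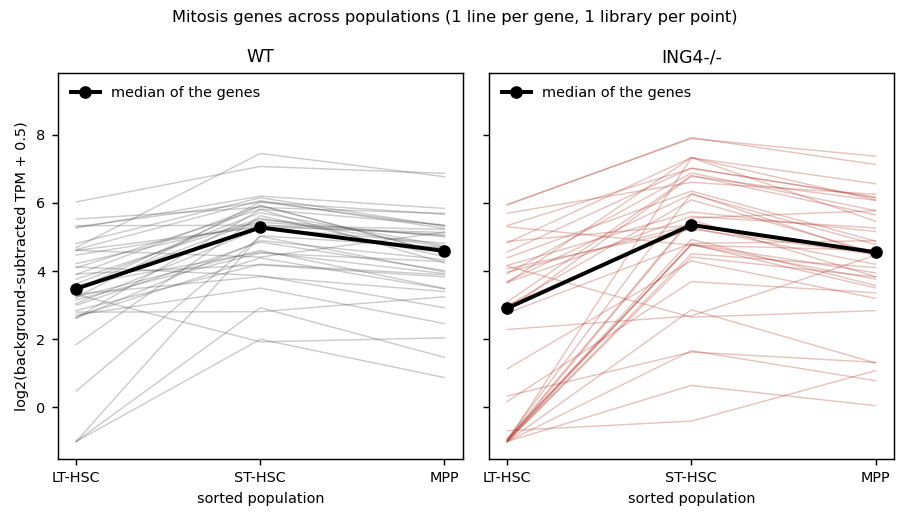
Background-subtracted level (log2 of TPM plus 0.5) of each of the 40 genes across LT-HSC, ST-HSC and MPP libraries, in WT (left) and ING4-/- (right), with 1 line per gene, 1 library per point and the median in black. In both panels most lines peak in ST-HSCs, the median being 38.3 TPM in WT and 40.3 TPM in ING4-/-.

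Tested over both genotypes with genotype in the model, the differences did not pass. For MPPs against LT-HSCs the median log2 fold change of the 40 genes was 1.47 against 0.03 over all genes, 38 of 40 were above 0, and edgeR called 0 of them, as it called 0% of the 31001 genes tested. At an unadjusted p under 0.05 there were 11 of the 40 genes and 561 of all, and DESeq2 called 0 of the 40 with 4 under an unadjusted 0.05. For ST-HSCs against LT-HSCs, a comparison added after the data were seen, the median was 2.26, 38 were above 0, and edgeR again called 0 of 40 and 0% of all genes. There 20 of the 40 had an unadjusted p under 0.05 against 616 of all genes, and DESeq2 called 0 with 19 under an unadjusted 0.05 and a lowest adjusted p of 0.0552. The fit left 2 residual degrees of freedom. Without the ING4-/- LT-HSC library the medians were 0.56 for MPPs and 1.36 for ST-HSCs.

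Among the genes with small errors in this comparison, Ccnb1 was higher in ST-HSCs than in LT-HSCs by 2.62 on the log2 scale (SE 0.321), Ccnb2 by 2.36 (SE 0.314), Cenpa by 2.34 (SE 0.324) and Cdk1 by 1.70 (SE 0.266), none of them called. Bub3 varied less, by 0.76 (SE 0.218). The 2 genes with the opposite sign were Ttk (-0.59, SE 0.719) and Pttg1 (-0.13, SE 0.580). In WT, Ttk was at 14.6, 17.6 and 13.7 TPM after subtraction, and in ING4-/- at 17.2, 5.76 and 6.65 TPM. On the deposited counts, Pttg1 was nearly level in WT, at 36.1, 40.4 and 33.75 CPM, and was at 38.7, 26.7 and 25.3 CPM in ING4-/-.

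LT-HSCs of ING4-/- mice stood apart from the other libraries. The list split there, with 13 genes at 3 counts or fewer and the other 27 at 23 to 6372 counts in a library of 35596876. At 0 counts were Aurkb, Nuf2, Knl1, Cenpf, Kif11, Kif2c, Prc1 and Anln, at 1 count Ccnf, Bub1, Ndc80 and Kif20a, and at 3 counts Ect2. In ING4-/- ST-HSCs these 13 genes had 313 to 8920 counts and in ING4-/- MPPs 173 to 5746. No member was at 3 counts or fewer in either of those libraries.

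Such gaps also occurred among other genes of that library. Of genes with at least 100 counts in the other 2 ING4-/- libraries, 13 of 39 members (33.3%) were at 3 counts or fewer in ING4-/- LT-HSCs, against 6.57% of 9762 genes, 21.1% of the other mitosis genes and 2.56% of the replication genes. For the same measure in ING4-/- ST-HSCs and MPPs the share over all genes was 2.45% and 1.47%. The genes with reads included partners of those without: Cdk1 had 2432 counts, Ccnb1 2078 and Top2a 1175 in the ING4-/- LT-HSC library. In WT LT-HSCs the counts of Kif11, Knl1 and Anln were 2.73, 1.77 and 2.25 times the expected background, all within the range of the receptor genes, so no fold against WT is given. With 1 library per genotype in this population there is no test of these differences.

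**Figure D5:**
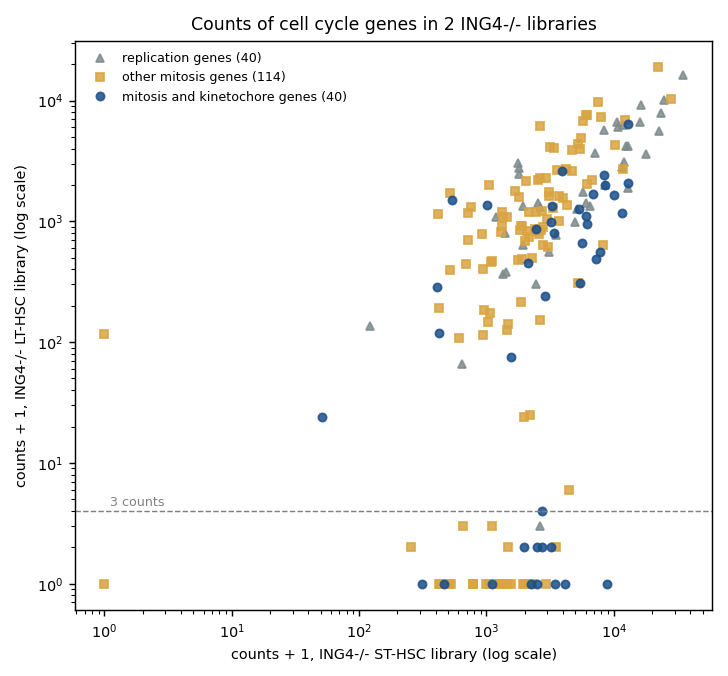
Counts plus 1 in the ING4-/- LT-HSC library against the ING4-/- ST-HSC library (both axes log scale) for the 40 mitosis and kinetochore genes, 114 other mitosis genes and 40 replication genes, 1 point per gene. The 13 of the 40 genes at or under the dashed line, where some of the other mitosis and replication genes also lie, had 313 to 8920 counts in ST-HSCs, and the other 27 of the 40 lie between 23 and 6372 counts in LT-HSCs.

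Within single populations the members were compared by ratios. The median log2 ratio of the 40 genes, ING4-/- over WT, was -1.10, 0.65 and 0.41 on the deposited counts, and -1.12, 0.04 and -0.01 after background subtraction. Over all genes the medians were -4.13, -4.07 and -3.74 on the deposited counts and -1.36, -1.08 and -1.16 after subtraction, so the members' subtracted value in LT-HSCs was near that of all genes. In ST-HSCs and in MPPs 20 members were above 0 and 20 below after subtraction. Summed over the 40 genes and per length, the subtracted level was 622, 1690 and 1127 TPM in WT and 513, 2560 and 1411 TPM in ING4-/-. With 1 library each, the difference between populations was not tested.

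The sort labels and other cell types were read from markers. The stem and progenitor markers Kit, Hlf, Mecom, Procr, Ly6a and Cd34 had reads in all 6 libraries, and Slamf1 was lowest in the MPPs of each genotype (9.61 TPM in WT and 2.34 in ING4-/-), while Flt3 was highest there (78.8 and 84.3 TPM). Summed erythroid markers, 10 genes, were at 445, 90.8 and 51.7 TPM in WT and at 439, 421 and 214 TPM in ING4-/-, and the median marker was at 4.24, 3.83 and 3.17 TPM in WT and at 28.1, 39.4 and 6.86 TPM in ING4-/-, while Alas2 had 0 counts in all 3 ING4-/- libraries. Granulocyte markers, 10 genes, summed to 176, 156 and 404 TPM in WT and to 484, 400.3 and 579 TPM in ING4-/-, higher in each population, although Ly6g had 0 counts in ING4-/-. The 8 B cell markers summed to 51.5 to 93.6 TPM in WT and 83.6 to 159 TPM in ING4-/-, where Cd79a, Ebf1, Igll1 and Pax5 were among those at 0. The 8 T and NK cell markers summed to 39.3 to 279 TPM in WT and 52.0 to 491.5 TPM in ING4-/-, mostly from Nkg7, with Cd3e and Cd8a at 0 in ING4-/-. The part of these cells in the values above was not tested.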

How the data were processed

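RNA of 6 sorted libraries was analysed. The authors deposited raw read counts per gene (49315 genes) with no normalization, and their build is named mm10 in the submitters' processing notes. The aligner, counter and strand setting are not given in the sources used here. Symbols and exons came from GENCODE M21 (49056 identifiers matched). Genotypes were contrasted over their 3 libraries each with edgeR 4.0.16 (R 4.3.3, TMM, filterByExpr, quasi-likelihood test, Benjamini-Hochberg adjustment over all genes), and populations with genotype as a covariate. SE is the absolute log2 fold change over the square root of F. DESeq2 1.42.0 was the other test. Background was the count density on receptor genes times exonic length, subtracted and rounded. Named copies were searched with BLAST 2.17.0 at 95% identity over at least 150 bases.

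The WT and ING4-/- libraries of a population shifted weakly the same way relative to the average of their own genotype (r = 0.143 in the LT-HSC pair, 0.110 in the ST-HSC pair, 0.121 in the MPP pair, 9673 genes). This shared part was small and was not tested, and population as a block is given as an alternative. The members and lists were chosen with earlier results of these data known. All 40 members may be named. Values in every library are given for the highest and lowest genotype value of each role and for Mki67, Top2a, Cdk1, Ccnb1, Plk1, Bub1b, Cdc20 and Birc5, and of the other mitosis genes the 2 highest and 2 lowest called are named. Alternatives were other scalings, DESeq2, count minimums, background subtraction, length trend removal, population as a block and leaving out libraries or populations. Length trend removal was always paired with the minimum of 10 counts. The comparison of ST-HSCs with LT-HSCs, the block with background subtraction, and the promoter, order and detection counts were added after the data were seen. The fits were also run on simulated counts without a genotype difference in background and without a length trend. That run cannot show how the fits handle these features. A count of 0 allows up to 3 counts, or 0.0765 to 0.383 CPM. Reads were counted without molecular identifiers, so this limit covers counting error only.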

Additional observations from a re-analysis of the deposited data

Results flagged for a closer look

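Genotype ratios pointed in opposite directions in different populations for a few genes, judged by background-subtracted log2 ratios past a 2-fold change in both populations. In 2 genes, Ect2 and Aurkb, the ING4-/- library was lower than WT in LT-HSCs and higher in ST-HSCs. The ST-HSC log2 ratios were 1.76 for Ect2 and 1.02 for Aurkb. In 3 genes, Nuf2, Aurkb and Ccnf, the ING4-/- library was lower in LT-HSCs and higher in MPPs. The MPP log2 ratios were 1.45 for Nuf2, 1.24 for Aurkb and 2.33 for Ccnf. The ING4-/- LT-HSC library held 0 counts of Aurkb and Nuf2, 1 of Ccnf and 3 of Ect2. The LT-HSC ratios of these genes depend on the prior count of 2 and are not given. In 1 gene, Cenpe, the ING4-/- library was higher in LT-HSCs (5.22) and lower in ST-HSCs (-1.73). The WT LT-HSC counts of Cenpe were no more than the expected background, and on the deposited counts its ratio in LT-HSCs was -2.22. The WT LT-HSC counts of Ect2, Aurkb, Nuf2 and Ccnf were 1.86, 2.18, 1.80 and 2.18 times the expected background, all within the range of the receptor genes, as were those of Ect2 in WT ST-HSCs (1.98) and of Nuf2 in WT MPPs (2.04), so these ratios rest on WT levels within that range. Each ratio rests on 1 library per genotype, and the difference between populations was not tested.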

How the results depend on the processing

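The counts of called genes depended on the setting. The members' median genotype change switched sign between settings. It moved by no more than 0.948, the SD of the members' median log2 ratio over the 3 populations. The MPP against LT-HSC median moved by no more than 1.2, its SD over the 2 genotypes. Mki67 was the single member called lower in 9 of 18 alternatives. Members called lower numbered 2 with DESeq2 size factors, with the DESeq2 test, with at least 10 counts in every library, and without both LT-HSC or both MPP libraries, and 0 without both ST-HSC libraries or with background subtraction and the block together. Leaving out single libraries gave 1 to 3. Members called higher numbered 0 with DESeq2 size factors, the DESeq2 test, the minimum of 10 counts, background subtraction, or both MPP libraries left out, and 0 with subtraction and the block together. They numbered 1 with the count minimum and the length trend removed together, and 1 without both ST-HSC libraries. They numbered 7 with population as a block, 8 with upper-quartile scaling, 14 without both LT-HSC libraries and 0 to 15 when 1 library was left out. The members' median ranged from -0.48 to 0.92 over these settings. Of the other mitosis genes, 20 were called. The number was 13 with DESeq2 size factors, 33 with upper-quartile scaling, 9 with the count minimum and 11 after subtraction. It was 7 with the count minimum and the length trend removed together, 12 without both ST-HSC libraries and 4 with subtraction and the block. Leaving 1 library out gave 12 to 30. In MPPs against LT-HSCs, 0 members were called in all 14 alternatives, with medians from 0.56 to 2.04, the lowest without the ING4-/- LT-HSC library. The block fit changed no call beyond those named here and in the comparison of genotypes.

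Some log2 fold changes that were not called changed sign. Top2a was at -0.34 with DESeq2 size factors and the DESeq2 test, -0.47 with the count minimum, -0.64 after subtraction, -0.38 with the block, -0.60 without both ST-HSC libraries, -0.026 without both MPP libraries and -0.99 with subtraction and the block, and from -1.03 to 0.56 leaving 1 library out. Bub1b was at -0.34, -0.34, -0.47, -0.66, -0.30 and -0.65 in the first 6 of these. It was at -0.44 with the count minimum and the length trend removed, -0.95 with subtraction and the block, and from -0.89 to 0.50 leaving 1 library out. Ect2 was at -0.42 with the block, -0.24 without both ST-HSC libraries and -0.46 with subtraction and the block (-0.23 to 1.35 leaving 1 library out). Upper-quartile scaling gave 0.21 for Incenp, 0.49 for Kif2c and 0.063 for Espl1, and leaving out both LT-HSC libraries gave 0.25 for Kif2c and 0.18 for Espl1. Leaving 1 library out gave -1.29 to 0.50 for Kif2c and -1.03 to 0.048 for Espl1. Plk1 was at -0.10 with the count minimum and the length trend removed, and Aurkb at -0.39 with subtraction and the block. The cause of these changes was not tested. Cdk1 was below the call in 12 of 18 alternatives and Bub3 in 9. WT depth and background set the limit for low genes, since 14 of the 40 members lay above the background range in WT LT-HSCs.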
